A study of Mus musculus with 6 samples.

Results

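The transcriptome of control mouse embryonic fibroblasts on day 2 of reprogramming is described here from the 2 libraries that received shLuc, a short hairpin RNA (shRNA) against luciferase, in complete medium. They are 2 of the 6 libraries of the series and were chosen by their labels alone, with no measured value used. All cells were of strain CBA/CaJ X C57BL/6J. They were grown in iCD1, a chemically defined reprogramming medium that contains ethanolamine (Etn). The study asked how the CDP-ethanolamine pathway, which makes the membrane lipid phosphatidylethanolamine, affects early reprogramming. Its other 4 libraries were 1 each of cells with shEtnk1/2, shPcyt2 or shPebp1 in iCD1 and of cells with shLuc in iCD1 without ethanolamine, all of the same strain and day. They are used here only where a value is set beside theirs. The labels name neither the reprogramming factors nor how they were delivered. The labels do not tell whether these libraries came from separate cultures, so the spread between them may be technical.

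Embryonic fibroblasts are mesenchymal cells: they lack tight junctions, crawl on actin stress fibres and secrete the collagens and other proteins of the extracellular matrix. Reprogramming forces such cells towards pluripotency, usually with the transcription factors Pou5f1 (also called Oct4), Sox2, Klf4 and, in some protocols, Myc. In the first days the cells are known to pass towards an epithelial state, with Cdh1 (E-cadherin) as its usual marker, while the cells' own pluripotency genes such as Nanog come on later.

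Expression is given as RPKM, the reads of a gene divided by its length in kilobases and by the depth of its library, which sets genes of different length and libraries of different depth on 1 scale. A level is therefore per length, and levels of different genes can be compared. The table listed 18303 genes. Whole reads could be recovered for all 18303, and came to 20107998 in the library labelled replicate 1 and 19620918 in the library labelled replicate 2, against 18547721 to 20107998 in all 6 libraries. For genes with few reads the recovered reads are the smallest whole numbers that match the values, and the true ones may be larger. Values below are given in the order replicate 1, replicate 2, and intervals are 95% Poisson intervals of the recovered reads, which cover counting error only, since the reads carry no molecular identifiers. Whether a recovered read is a single read or a pair is not given in the sources used here. RNA from bulk cells was measured, so fewer cells of a type and less RNA per cell cannot be told apart.

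The library labelled shLuc replicate 2 went against its label for 1 gene. Pebp1 encodes a phosphatidylethanolamine-binding protein that restrains Raf kinase, and it is the gene targeted in the shPebp1 library. Its level was 250.4 RPKM in the library labelled shLuc replicate 1 (95% interval 244 to 257) and 101 RPKM in the library labelled replicate 2 (96.7 to 105). It was 99.6 RPKM in the shPebp1 library, 229 in shEtnk1/2, 263 in shPcyt2 and 210.5 in the cells without ethanolamine. The library labelled replicate 2 thus lay beside shPebp1 and below the other 4. Of 11940 genes whose mean over all 6 libraries reached 1 RPKM, Pebp1 was the only 1 that was at least 2-fold lower in both these libraries than in each of the other 4, and 0 were 2-fold higher. Both libraries' values are given throughout, so that each level can be read with the library labelled replicate 2 and without it.

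A gene is called on here where it reached 1 RPKM in both libraries, a convention and not a measure of function. By this rule 11746 of 18303 listed genes (64.2%) were on, and 451 (2.46%) passed the level in only 1 of the libraries. Of the remainder, 2831 (15.5%) stood under 0.1 RPKM in both and 1097 (5.99%) had no reads in both. The table holds no gene that is at 0 in all 6 libraries. Of 21900 protein-coding genes in the RefSeq tables, 15671 (71.6%) were listed under the same symbol and 10813 (49.4%) were on. Counts of genes on in the lists below are to be read against the 64.2% of all listed genes.

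Levels ran from 0 to 6417 RPKM. The median over all listed genes was 4.83 and 4.84 RPKM, and the median of the genes on was 12.4 and 12.5 RPKM, with 5% of them under 1.71 and 1.69 RPKM and 5% over 100.5 and 100.9 RPKM. In both libraries 6564 genes (35.9%) reached 10 RPKM, 576 (3.15%) reached 100 and 39 (0.213%) reached 1000. The 100 most abundant genes carried 26.3% and 25.9% of the summed RPKM, and 19% and 18.9% of the reads, and the 1000 most abundant carried 57.5% and 57.1% of the RPKM.

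**Figure D1:**
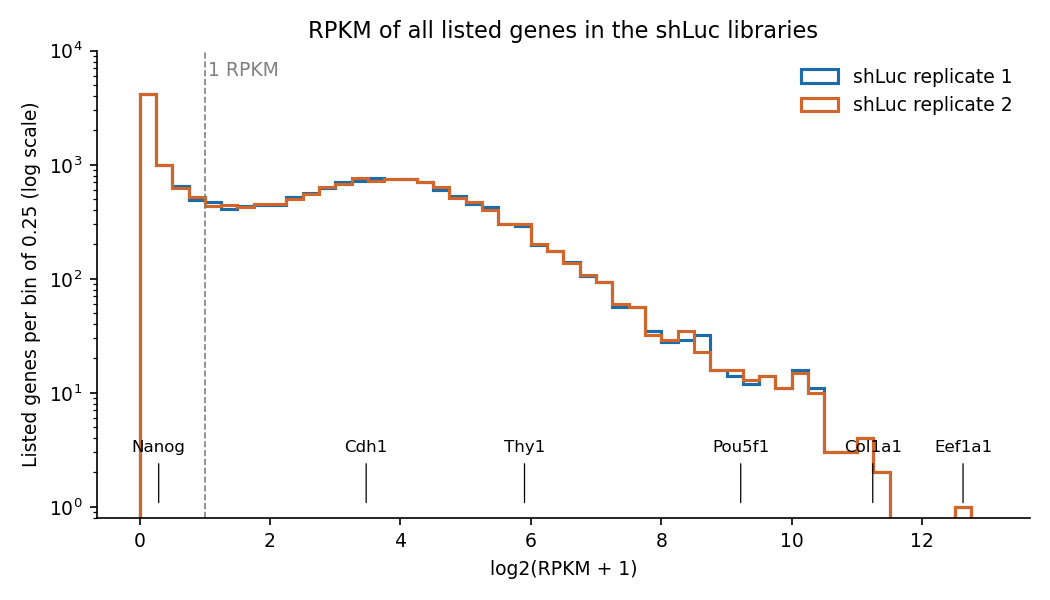
Histogram of log2(RPKM + 1) for the 18303 listed genes in the 2 shLuc libraries, with the number of genes per bin on a log axis, the dashed line at 1 RPKM and ticks at the mean level of 6 genes. The outlines of the libraries nearly coincide, with a group of genes near 0, a broad hump around the median of genes on (12.4 and 12.5 RPKM) and a tail that ends in Eef1a1.

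Promoters of genes on held more CG than those of coding genes that were not listed or had no reads. A promoter here is the window from 250 bases before to 50 after the RefSeq start, and the measure is the number of CG dinucleotides in it, the sites of DNA methylation in mammals. For 8717 of the 10813 coding genes on (80.6%) a promoter was given, and it held a median of 22 CG. At least 15 CG were found in 74.6% of them and at most 5 in 6.55%. Of the 6920 coding genes that were not listed or had no reads, 6229 were not listed, and why a gene is not listed is not given in the sources used here. For 5632 of the 6920 (81.4%) the median was 3 CG, with 13.6% at 15 or more and 70.3% at 5 or fewer. The motif TATAAA was searched on the gene's strand from 50 to 11 bases before the start. It stood in 1.11% of promoters of genes on and in 6.14% of those not listed or without reads. Over all coding genes, of which 17492 of 21900 (79.9%) had a promoter, it stood in 3.28%. The low share of genes on did not hold for the most abundant. TATAAA stood in 0.738% of promoters at a mean of 10 to 100 RPKM. At 100 RPKM or more, where 452 of 567 genes (79.7%) had a promoter, it stood in 3.98%. These are descriptions of the sequences, and a match is not a measured site.

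The following 6 promoters show the range, 3 from genes that were abundant and 3 from genes of other tissues. They are from RefSeq, build GRCm38.p6, on the gene's own strand, 5′ to 3′, and capitals mark each CG. Eef1a1, the most abundant gene, has 22 CG in chr9:78481675-78481974 (minus strand), and Klf4, a reprogramming factor, has 40 in chr4:55532426-55532725 (minus strand). The values do not separate the cells' own Klf4 copy from an introduced one, so the Klf4 level cannot be assigned to the promoter shown. Vim, for the fibroblast intermediate filament vimentin, has 11 CG in chr2:13574061-13574360 (plus strand) and holds TATAAA in the searched stretch.
Eef1a1: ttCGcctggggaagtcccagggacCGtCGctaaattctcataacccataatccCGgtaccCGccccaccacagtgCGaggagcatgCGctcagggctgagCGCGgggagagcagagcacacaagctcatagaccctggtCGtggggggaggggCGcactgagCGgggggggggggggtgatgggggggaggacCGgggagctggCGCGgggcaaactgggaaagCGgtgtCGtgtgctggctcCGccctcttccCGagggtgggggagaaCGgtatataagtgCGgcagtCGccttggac
Klf4: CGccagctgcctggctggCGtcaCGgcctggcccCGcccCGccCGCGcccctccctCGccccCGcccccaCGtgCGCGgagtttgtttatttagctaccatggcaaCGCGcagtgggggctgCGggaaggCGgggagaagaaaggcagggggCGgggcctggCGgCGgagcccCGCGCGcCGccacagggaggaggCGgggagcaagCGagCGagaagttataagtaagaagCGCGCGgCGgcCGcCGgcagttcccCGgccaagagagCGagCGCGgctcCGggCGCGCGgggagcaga
Vim: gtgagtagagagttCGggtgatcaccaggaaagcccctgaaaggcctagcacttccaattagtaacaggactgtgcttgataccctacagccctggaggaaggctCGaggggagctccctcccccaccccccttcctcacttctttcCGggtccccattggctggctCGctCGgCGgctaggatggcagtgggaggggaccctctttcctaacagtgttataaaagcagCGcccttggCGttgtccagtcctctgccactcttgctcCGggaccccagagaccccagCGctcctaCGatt
Myog, a muscle regulator, has 9 CG in chr1:134289754-134290053 (plus strand), and Apoa2, a liver apolipoprotein, has 1 in chr1:171221314-171221613 (plus strand). Neither gene had a read in either library. Alb, for serum albumin, has 3 CG in chr5:90460620-90460919 (plus strand) and was nevertheless on, at 11.7 and 12.4 RPKM, so that few CG did not mean no reads.
Myog: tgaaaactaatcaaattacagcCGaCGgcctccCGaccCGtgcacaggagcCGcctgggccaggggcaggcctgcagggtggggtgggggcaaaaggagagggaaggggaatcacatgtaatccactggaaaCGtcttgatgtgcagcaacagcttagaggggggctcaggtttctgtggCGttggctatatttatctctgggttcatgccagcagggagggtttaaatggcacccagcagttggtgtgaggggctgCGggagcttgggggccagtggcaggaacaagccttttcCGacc
Apoa2: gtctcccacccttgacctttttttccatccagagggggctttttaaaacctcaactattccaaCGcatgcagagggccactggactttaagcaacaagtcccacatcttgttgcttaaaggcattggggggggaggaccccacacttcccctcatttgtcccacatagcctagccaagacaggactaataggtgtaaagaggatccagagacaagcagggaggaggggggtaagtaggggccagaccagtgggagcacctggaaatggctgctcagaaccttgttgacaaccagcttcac
Alb: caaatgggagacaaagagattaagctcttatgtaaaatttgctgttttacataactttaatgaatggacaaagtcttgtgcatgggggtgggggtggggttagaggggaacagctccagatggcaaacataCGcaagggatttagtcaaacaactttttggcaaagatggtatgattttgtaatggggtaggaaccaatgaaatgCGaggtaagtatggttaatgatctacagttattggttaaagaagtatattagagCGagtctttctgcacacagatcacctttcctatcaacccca

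Translation, matrix and the cytoskeleton filled the top of the table. The most abundant gene was Eef1a1, the elongation factor that carries aminoacyl-tRNA to the ribosome, at 6417 and 6232 RPKM, which was 1.61% and 1.57% of the summed RPKM. After it came Col1a2 at 2684 and 2672 RPKM, Col1a1 at 2322 and 2523 and Col3a1 at 2122 and 2119, the chains of the fibrillar collagens I and III. Vim stood at 2437 and 2307 RPKM and Ftl1, the light chain of the iron store ferritin, at 2163 and 2255. The other genes of the leading 25 included Tpt1, a growth-associated calcium-binding protein (2144 and 2066 RPKM), and Ppia, the cytosolic prolyl isomerase cyclophilin A (1863 and 1884). They also held Sparc, a collagen-binding matrix protein (1569 and 1508 RPKM), Hspa8, the constitutive Hsc70 chaperone (1238 and 1243), and Ptma, the chromatin-associated prothymosin alpha (1244 and 1212). Actb and Actg1, the cytoplasmic actins, stood at 1270 and 1261 RPKM and at 1173 and 1279. Eef2, the factor that moves the ribosome along the mRNA, stood at 1236 and 1198. The remaining genes of the 25 were 10 ribosomal protein genes, led by Rps12 at 2031 and 1937 RPKM and Rplp0 at 1936 and 1830, and Tmsb4x, which binds free actin (1354 and 1429).

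Ribosomal protein genes were the largest block by level. Of 79 cytosolic ribosomal protein genes searched, 78 were listed, 75 were on, against 64.2% of all listed genes, and 73 exceeded 100 RPKM in both libraries, with a median of 752 and 729 RPKM against 4.83 and 4.84 for all listed genes. Together they made 15.1% and 14.6% of the summed RPKM. The exceptions were Rpl30 at 0.396 and 0 RPKM, Rps27 at 0.431 and 0.442 and Rpl34 at 1.51 and 0.738, while Rpl26 was not listed. Each of these 4 encodes a standard component of the cytosolic ribosome, so a value near 0 in this table does not show that a gene was silent. Ribosomal protein genes have many near-identical copies in the genome, and how the authors' counting shared reads among copies is not given in the sources used here, so their single levels are uncertain. All 77 listed genes for mitochondrial ribosomal proteins were on, with a median of 25.3 RPKM, as were 36 of 39 proteasome subunits, with a median of 80.7 RPKM. The 15 translation factors examined were all on, from Eif2s1 at 35.4 and 38.3 RPKM, a subunit of the initiation factor that brings the initiator tRNA, up to Eef1a1.

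Fibroblast genes were among the highest in both libraries. All 30 examined, chosen with earlier results known, were listed and on, against 64.2% of all listed genes, and 18 exceeded 100 RPKM in both libraries. The list's median was 161 and 166 RPKM (the middle of the whole table was 4.83 and 4.84), and its members made 3.98% and 3.94% of the summed RPKM. Thy1, the surface glycoprotein by which fibroblasts are often sorted, stood at 61.9 and 55.7 RPKM. The platelet-derived growth factor receptors Pdgfra and Pdgfrb stood at 27.1 and 26.8 and at 44.1 and 41.9 RPKM. Among secreted matrix proteins, Fn1 (fibronectin) stood at 380.1 and 373 RPKM, Fstl1 at 872 and 817, the proteoglycan Bgn at 684 and 613, Lum at 279 and 272 and Dcn at 257 and 224. The matrix metalloproteinase Mmp2 stood at 331 and 297 RPKM and the collagen cross-linking enzyme Lox at 132 and 138. Fap, fibroblast activation protein, was the lowest of the list at 7.23 and 7.73 RPKM.

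Collagens divided sharply by type. Of 32 collagen genes, 23 were on and 11 exceeded 100 RPKM in both libraries, against 64.2% and 3.15% of all listed genes. All 32 together made 2.39% and 2.44% of the summed RPKM. Besides collagens I and III, the type VI chains Col6a1 and Col6a2, which form beaded filaments around cells, reached 522 and 508 and 407 and 393 RPKM. The type V chains Col5a1 and Col5a2, which set the diameter of collagen I fibrils, stood at 246 and 256 and at 258 and 258 RPKM. Of the basement-membrane collagen IV, Col4a1 and Col4a2 stood at 185 and 183 and at 175 and 168 RPKM, whereas Col4a3 stood at 0.0634 and 0.0472 and Col4a4 at 0.152 and 0.221. Cartilage collagens were mixed: Col2a1 was on at 18.5 and 19.8 RPKM, while Col9a1 and Col10a1 stayed under 1 RPKM at 0.156 and 0.245 and at 0.666 and 0.779. Col17a1, a hemidesmosome collagen of skin epithelium, stood at 0.0716 and 0.0184 RPKM.

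The endoplasmic reticulum genes that fold and modify secreted proteins were high as well. Of 17 examined, 15 were on, with a median of 112 and 105 RPKM. Serpinh1, the chaperone for collagen, was the highest at 744 and 795 RPKM, followed by the calcium-binding chaperone Calr at 567 and 565 and P4hb, a subunit of collagen prolyl hydroxylase, at 459 and 468. Stress-response members stood lower, with the transcription factor Ddit3 at 14.01 and 15.4 RPKM, Atf3 at 1.13 and 0.900 and the pseudokinase Trib3 at 0.290 and 0.694.

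Cytoskeletal genes were on without exception. All 21 examined exceeded 10 RPKM and 16 exceeded 100, and they made 2.25% and 2.36% of the summed RPKM. Cfl1 (cofilin), which severs actin filaments, stood at 763 and 779 RPKM and Pfn1 (profilin), which feeds actin monomers to growing ends, at 605 and 651. The tubulin genes Tubb5 and Tuba1a stood at 577 and 608 and at 552 and 604 RPKM. Actins and tubulins also have near-identical copies, so the split among them is uncertain. Of 12 contractile genes typical of smooth muscle and of activated fibroblasts, 11 were on, with Acta2 (smooth muscle actin) at 177 and 233 RPKM, Tpm1 (tropomyosin) at 153 and 170.2 and Tagln at 68.8 and 92.7. Myh11, the smooth muscle myosin heavy chain and the most specific marker of that tissue in the list, stood at 0.583 and 0.628 RPKM.

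Reprogramming factors were among the most abundant transcripts of the cells. Pou5f1 stood at 619.8 RPKM in the library labelled replicate 1 (95% interval 611 to 629) and 569 in the library labelled replicate 2 (560.3 to 578), which ranked it 79 of all 18303 listed genes by mean level. Klf4 stood at 394 and 362 RPKM, rank 126, and Sox2 at 311 and 303, rank 166. Myc stood far lower, at 8.62 and 7.99 RPKM, rank 7479. The table gives 1 value per gene and does not separate a gene's own copy from an introduced one. In the other 4 libraries Pou5f1 ranged from 412 RPKM in shEtnk1/2 to 554 in shPcyt2, Klf4 from 238 in the cells without ethanolamine to 327 in shPebp1, and Sox2 from 200.3 in the cells without ethanolamine to 277 in shPcyt2. The libraries labelled shLuc replicates 1 and 2 thus had the highest levels of the 3 factors in the series.

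Most pluripotency genes other than the factors were near 0. Of 26 examined, 18 were listed, 5 were on, against 64.2% of all listed genes, and 2 exceeded 10 RPKM, with a median of 0.413 and 0.530 RPKM over those listed. Nanog, the central factor of naive pluripotency, was counted by 6 and 14 reads, 0.133 RPKM (95% interval 0.0487 to 0.289) and 0.317 RPKM (0.173 to 0.532). Fgf4, Nr5a2 and Prdm14 had no reads, and at this depth 3 reads would have been 0.0491 and 0.0503, 0.0386 and 0.0395, and 0.0574 and 0.0588 RPKM. Sall4 and Esrrb, partners of the pluripotency network, stood at 0.0684 and 0.0801 and at 0.0322 and 0.0110 RPKM, and Zfp42 (Rex1) at 0.881 and 1.04. Dppa3, Dppa4, Dppa5a, Utf1, Tdgf1, Tcl1, Nr0b1 and Trap1a were not listed. The members that were on were Alpl (alkaline phosphatase, an early marker that bone cells share) at 11.2 and 11.4 RPKM, L1td1, an RNA-binding protein of embryonic stem cells, at 11.5 and 10.8, Tbx3 at 4.33 and 4.49, Tfcp2l1 at 3.49 and 2.82 and Klf5 at 2.36 and 2.33.

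Epithelial genes were mostly off, with a few junction genes on. Of 30 examined, 28 were listed, 11 were on, against 64.2% of all listed genes, and 2 exceeded 10 RPKM in both libraries. The median was 0.768 and 0.684 RPKM, against 4.83 and 4.84 over the whole table. Cdh1 stood at 10.9 RPKM (95% interval 10.2 to 11.6) and 9.35 RPKM (8.72 to 10.02), close to the 12.4 and 12.5 RPKM of the median gene on. In the other 4 libraries it ranged from 6.04 RPKM in shEtnk1/2 to 10.98 in shPebp1, so the shLuc values lay inside the range of the series. Jup (plakoglobin), which links cadherins to filaments in fibroblasts too, stood at 30.6 and 32.3 RPKM, the desmosome genes Pkp1 and Dsp at 11.8 and 12.4 and at 6.48 and 6.16, and the claudin gene Cldn3 at 5.54 and 8.45. The serine protease gene St14 and its inhibitor gene Spint2 stood at 4.73 and 4.54 and at 6.18 and 6.65 RPKM. Epcam, an epithelial adhesion molecule, stood at 1.11 and 1.92 RPKM, and Krt8 and Krt18, the keratins of simple epithelia, at 2.23 and 0.845 and at 1.45 and 1.34. Cldn4, Cldn7, the tight-junction gene Ocln and the epithelial regulators Grhl2 and Ovol2 stayed at or under 0.202 RPKM in both libraries, at 0 and 0.0281, 0.0683 and 0.105, 0.202 and 0.0478, 0 and 0.0103, and 0 and 0.166. Cldn6 and the splicing factor Esrp1 were not listed.

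Mesenchymal regulators and the mesenchymal cadherins stood above most epithelial genes. Of 11 transcription factors known to drive the epithelial-to-mesenchymal transition (EMT), 8 were on and 7 exceeded 10 RPKM. The shares over all listed genes were 64.2% and 35.9%. Twist1 led at 142 and 137 RPKM, followed by Tcf4 at 68.1 and 69.0 and Prrx1 at 56.0 and 53.7. The repressors of Cdh1 named Snai2, Zeb1, Zeb2 and Snai1 stood at 20 and 20.2, 15.7 and 14.4, 14.8 and 15.4, and 7.91 and 10.6 RPKM. Snai3 was at 0.0312 and 0 RPKM. Among 9 classical and related cadherins 6 were on, close to the 64.2% of all listed genes. The mesenchymal cadherin Cdh11 stood at 206 and 197 RPKM, Cdh13 at 51.2 and 39.3 and Cdh2 (N-cadherin) at 44.3 and 50.6, each above Cdh1 in both libraries, while the endothelial cadherin Cdh5 stood at 0 and 0.0765. Each of these libraries therefore held E-cadherin RNA together with a larger amount of mesenchymal cadherin RNA.

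**Figure D2:**
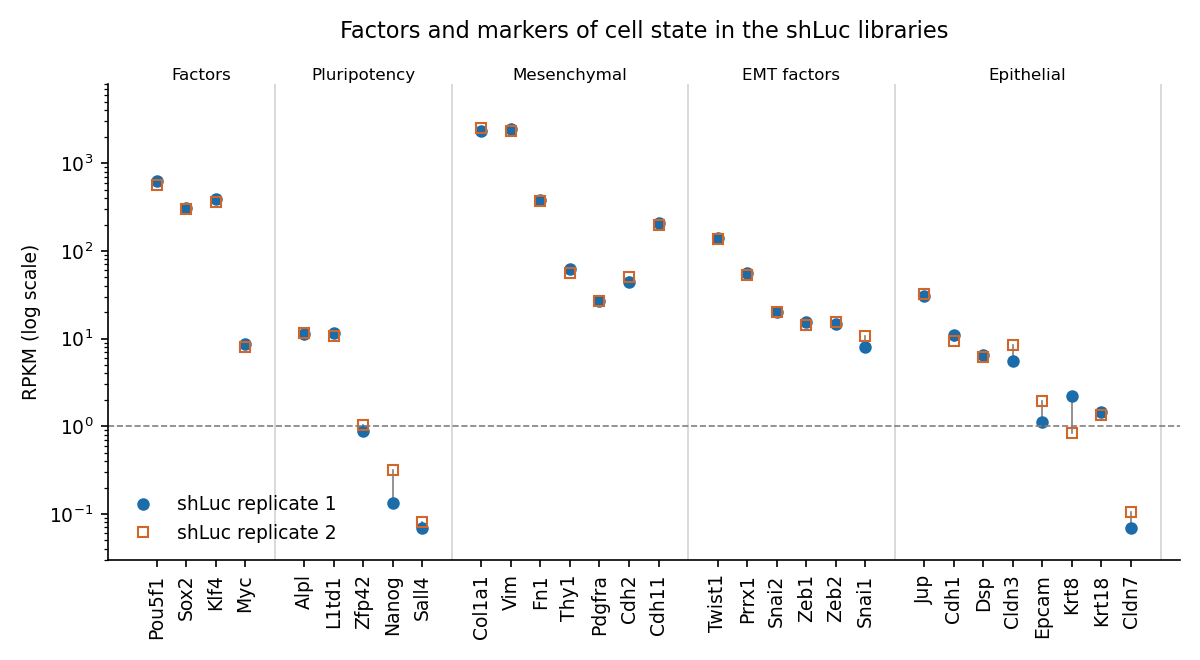
RPKM on a log axis of 30 factors and markers of cell state in the libraries labelled shLuc replicate 1 (filled circles) and replicate 2 (open squares), joined per gene by a line, with the dashed line at 1 RPKM. Pou5f1, Sox2 and Klf4 lie above 300 RPKM and the mesenchymal genes between 26.8 and 2523 RPKM, while Nanog and Sall4 lie below 1 RPKM and the epithelial genes span the line.

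Genes of cell division and of the p53 response were on side by side. All 30 cell cycle genes were on and 28 exceeded 10 RPKM, with a median of 40.2 and 43.9 RPKM. Pcna, the sliding clamp of DNA polymerase, stood at 184 and 175 RPKM, Ccnd2 and Ccnd1, the D cyclins of early G1, at 217 and 203 and at 149 and 133, Cdk4 at 313 and 327, Top2a at 78.1 and 84.7 and the proliferation marker Mki67 at 40.8 and 42.6. All 14 genes of the senescence barrier and of p53 targets were on too. Cdkn1a (p21), an inhibitor of cyclin-dependent kinases, led that list at 240.2 and 254 RPKM, followed by Ccng1 at 154 and 163 and Bax at 104 and 111, and the Ink4/Arf gene Cdkn2a stood at 18.0 and 24.3. Most replication-dependent histone genes, whose mRNAs end without a poly(A) tail, were low in these poly(A)-selected libraries. Of 11 listed, 2 were on, Hist1h1c at 53.1 and 51.5 RPKM and Hist1h2bc at 51.3 and 52.3.

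Most listed genes of energy metabolism were on. All 18 listed glycolysis genes were on, with Gapdh at 1097 and 1133 RPKM, Pkm at 455 and 461, Ldha at 214 and 215 and Aldoa at 204 and 213, and Slc2a1, the glucose transporter, at 8.77 and 9.33. Eno1 and Pklr were not listed. Of 28 nuclear genes of oxidative phosphorylation, 27 were on, with a median of 83.1 and 80.5 RPKM; Atp5b, a catalytic subunit of ATP synthase, was highest at 492 and 516, and the muscle form Cox6a2 stood at 0 and 0.231. No gene of the mitochondrial chromosome was listed. All 18 sterol and fatty acid synthesis genes were on, with a median of 59.6 and 66.2 RPKM, led by the stearoyl-CoA desaturase Scd2 at 461 and 527. All 17 genes of iron handling and antioxidant defence were on, among them the peroxiredoxin Prdx2 at 376 and 367 RPKM and the metallothionein Mt1 at 186 and 186.

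The pathway that the study manipulates was on at moderate levels. Of 15 genes of phosphatidylethanolamine and phosphatidylcholine synthesis and related lipid functions, 13 were on, with a median of 10.7 and 11.7 RPKM. The 15 include the binding protein gene Pebp1, which was the highest of them. Of the ethanolamine kinases that start the CDP-ethanolamine pathway, Etnk1 stood at 21.0 and 21.4 RPKM and Etnk2 at 0.457 and 1.00. Pcyt2, which makes CDP-ethanolamine, stood at 42.0 and 40.0 RPKM, and the transferases Ept1 and Cept1, which finish the lipid, at 10.3 and 10.8 and at 10.7 and 11.7. Pisd, which makes phosphatidylethanolamine from phosphatidylserine in mitochondria, stood at 16.3 and 15.3 RPKM, and Pemt, which converts it to phosphatidylcholine, at 2.21 and 2.47. Chkb was at 0.0258 and 0 RPKM.

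Signalling genes showed which ligands and receptors the cells held. All 23 genes of TGF-beta and BMP signalling were on, with the type II receptor Tgfbr2 at 114 and 112 RPKM, the ligands Tgfb1, Tgfb2 and Tgfb3 at 11.5 and 12.1, 31.5 and 39.2 and 40.4 and 41.3, and the target genes Id2 and Cyr61 at 115 and 128 and at 94.4 and 88.5. Of 18 listed Wnt pathway genes 17 were on, with Ctnnb1 (beta-catenin) at 268 and 264 RPKM, the feedback target Axin2 at 54.7 and 53.1, the ligand Wnt5a at 52.6 and 47.8 and the inhibitor gene Dkk2 at 64.6 and 57.1. Of 17 growth factor receptors 14 were on, with Igf2r at 88.7 and 89.8 RPKM and Fgfr1 at 57.2 and 56.4 above Egfr at 8.58 and 8.80, and with Erbb3 at 0.197 and 0.190. Of 21 secreted signals 16 were on, against 64.2% of all listed genes. Igf2, a fetal growth factor, stood at 404 and 462 RPKM, Mif at 216 and 233 and Ptn at 183 and 184. The inflammatory cytokine genes Il6 and Tnf stood at 0.547 and 0.281 and at 0 and 0.0615 RPKM, and Il1b had no reads, where 3 reads would have been 0.112 and 0.115. Of 21 interferon-response genes 16 were on, against 64.2% of all listed genes, and their median of 4.02 and 3.11 RPKM lay near the 4.83 and 4.84 of the whole table.

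Chromatin regulators of general use were on and germline or stem cell forms were low. Of 27 examined 26 were on, led by Trim28, a corepressor of retroelements, at 108 and 117 RPKM. The maintenance DNA methyltransferase gene Dnmt1 stood at 41.6 and 42.3 RPKM and Dnmt3a at 16.7 and 17.0, whereas Dnmt3b stood at 1.46 and 1.73 and its partner Dnmt3l at 0.0186 and 0.0761. Of the Tet dioxygenases, which oxidise methylcytosine, Tet3 stood at 14.04 and 15.2 RPKM, Tet2 at 3.93 and 3.86 and Tet1, the form of embryonic stem cells, at 1.02 and 1.35. The somatic AP-1 gene Jun stood at 45.0 and 47.0 RPKM and Fosl2 at 18.2 and 18.0, while Fosl1 stood at 0.0582 and 0.119.

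Hox genes, which mark position along the body axis, were broadly on at low to moderate levels. Of 39 genes, 38 were listed, 34 were on and 6 exceeded 10 RPKM in both libraries. Hoxd13, a gene of limb ends and the tail region, was highest at 27.9 and 24.6 RPKM, followed by Hoxc6 at 25.4 and 24.3, Hoxc8 at 13.5 and 14.9, Hoxa10 at 14.4 and 12.3, Hoxa9 at 12.8 and 13.3 and Hoxc5 at 12.2 and 11.8. Among the listed genes not on, Hoxb13 had no reads (3 reads would have been 0.113 and 0.116 RPKM). The others were Hoxd1 at 0.133 and 0.137 RPKM, Hoxc13 at 0.204 and 0.209 and Hoxc12 at 0 and 0.362. All other listed Hox genes were on, so anterior and posterior groups were present together, although the highest genes named above were not of the most anterior groups. Hoxb1 was not listed.

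**Figure D3:**
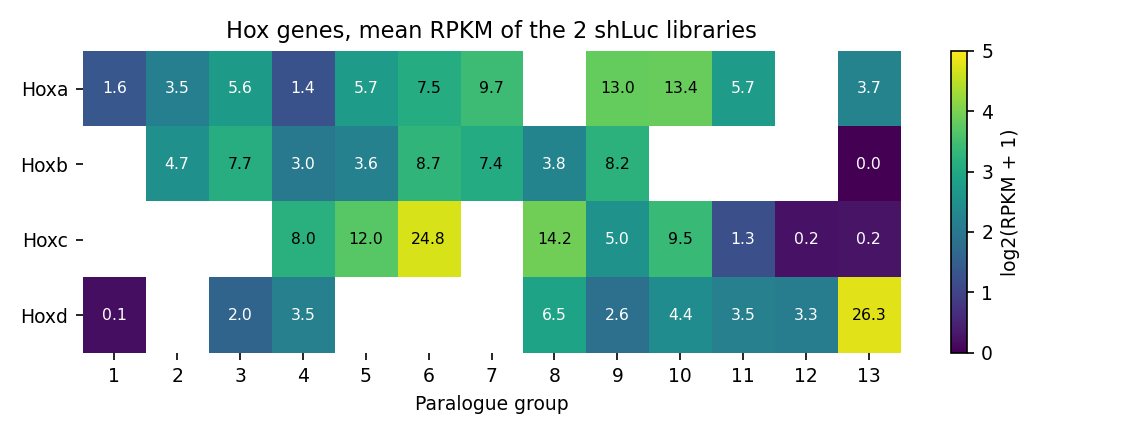
Mean RPKM of the 2 shLuc libraries for the 38 listed Hox genes, with clusters Hoxa to Hoxd as lines and paralogue groups 1 to 13 as columns, coloured by log2(RPKM + 1); white cells hold no listed gene. The highest cells are Hoxd13 and Hoxc6, and 4 of the 38 listed genes were not on.

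Imprinted fetal growth genes were high. Of 18 listed 17 were on and 3 exceeded 100 RPKM: the noncoding H19 at 749 and 788 RPKM, its neighbour Igf2 at 404 and 462 and the adaptor gene Grb10 at 181 and 183. Dlk1 and Meg3, of another imprinted cluster, stood at 12.4 and 10.4 and at 22.6 and 21.7 RPKM. Xist, the RNA that coats the inactive X chromosome of females, stood at 25.3 and 25.4 RPKM, and the Y-linked genes Eif2s3y, Ddx3y, Kdm5d and Uty at 27.0 and 28.9, 14.6 and 13.7, 6.39 and 6.78, and 4.49 and 4.62. Both kinds of RNA were present in each library, and the labels give no sex.

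Markers of other cell types were mostly at or near 0, with single exceptions. Members on were 0 of 3 listed for T and B cells, 0 of 6 for retina, 1 of 4 for hepatocytes and 1 of 5 for erythroid cells. They were 1 of 10 for endothelium, 1 of 4 for pancreas, 1 of 7 for kidney, gut and lung, and 1 of 9 for germ cells. The share over all listed genes was 64.2%. Many members were not listed at all, such as 7 of 10 for T and B cells and 6 of 10 for hepatocytes. The exceptions were Alb at 11.7 and 12.4 RPKM with the other 3 listed hepatocyte genes at or below 0.0583, Hbb-y, an embryonic globin, at 14.2 and 14.5 and Tek, an angiopoietin receptor, at 24.6 and 21.4. They also included Lgr5, a Wnt-associated receptor also used as a gut stem cell marker, at 29.0 and 23.4 RPKM, and, at lower levels, the hormone gene Sst at 1.66 and 2.04 and the meiotic gene Sycp3 at 1.02 and 1.13. The defining endothelial genes Pecam1, Cdh5, Emcn and Cldn5 stood at 0 and 0.0923, 0 and 0.0765, 0 and 0, and 0 and 0 RPKM. The 10 endothelial genes summed to 26.4 and 22.9 RPKM, nearly all from Tek.

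The leukocyte list was less empty. Of its 12 members 6 were on, against 64.2% of all listed genes. The 12 summed to 55.1 and 58.7 RPKM, most of it from the lysozyme gene Lyz2 at 40.2 and 42.6. Lyz2 was the only 1 of the 12 over 10 RPKM in both libraries. The members on had a median log2(mean RPKM + 1) of 1.53. The genes named next were not on. The defining leukocyte gene Ptprc (CD45) stood at 0.193 and 0.0718 RPKM and the macrophage genes Csf1r and Emr1 at 1.11 and 0.603 and at 0.596 and 0.924. Neural genes were split likewise: of 12 neuronal genes 5 were on, with Stmn2 at 44.4 and 47.7 RPKM, while Rbfox3, Snap25 and Neurod1 stood at 0 and 0.0310, 0 and 0.0909, and 0.0199 and 0. The 12 neuronal genes summed to 74.9 and 79.5 RPKM, and those on had a median log2(mean RPKM + 1) of 3.22. Of 12 glial and progenitor genes 4 were on, with the intermediate filament gene Nes, which dividing mesenchymal cells also use, at 36.6 and 38.3 RPKM and Olig2 without reads. Of 9 listed skeletal muscle genes 2 were on, of 6 listed cardiomyocyte genes 2 and of 8 listed keratinocyte genes 2. Of the skeletal muscle regulators Myog had no reads, and Myod1, Myf5 and Pax7 were not listed.

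Connective tissue fates stood between. Of 7 tendon genes 6 were on, with Fmod, a collagen-binding proteoglycan, at 21.1 and 15.8 RPKM and the tendon regulator Scx at 3.10 and 2.19. Of 12 cartilage and bone genes 6 were on, against 64.2% of all listed genes. Of the 12, 2 exceeded 10 RPKM in both libraries, against 35.9% of all listed genes, and the highest mean was 19.2 RPKM. The cartilage collagen gene Col2a1, described above, was on. The regulators Sox9 and Runx2 stood at 1.84 and 1.78 and at 2.84 and 3.11 RPKM. The cartilage proteoglycan Acan stood at 0.0472 and 0.145 RPKM and the bone regulator Sp7 at 0.0217 and 0.0223. Of 6 listed adipocyte genes 2 were on, with a list median of 0.662 and 1.02 RPKM and a highest mean of 5.79 RPKM. The adipocyte regulator Pparg was among the low ones, at 0.150 and 0.128 RPKM.

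**Figure D4:**
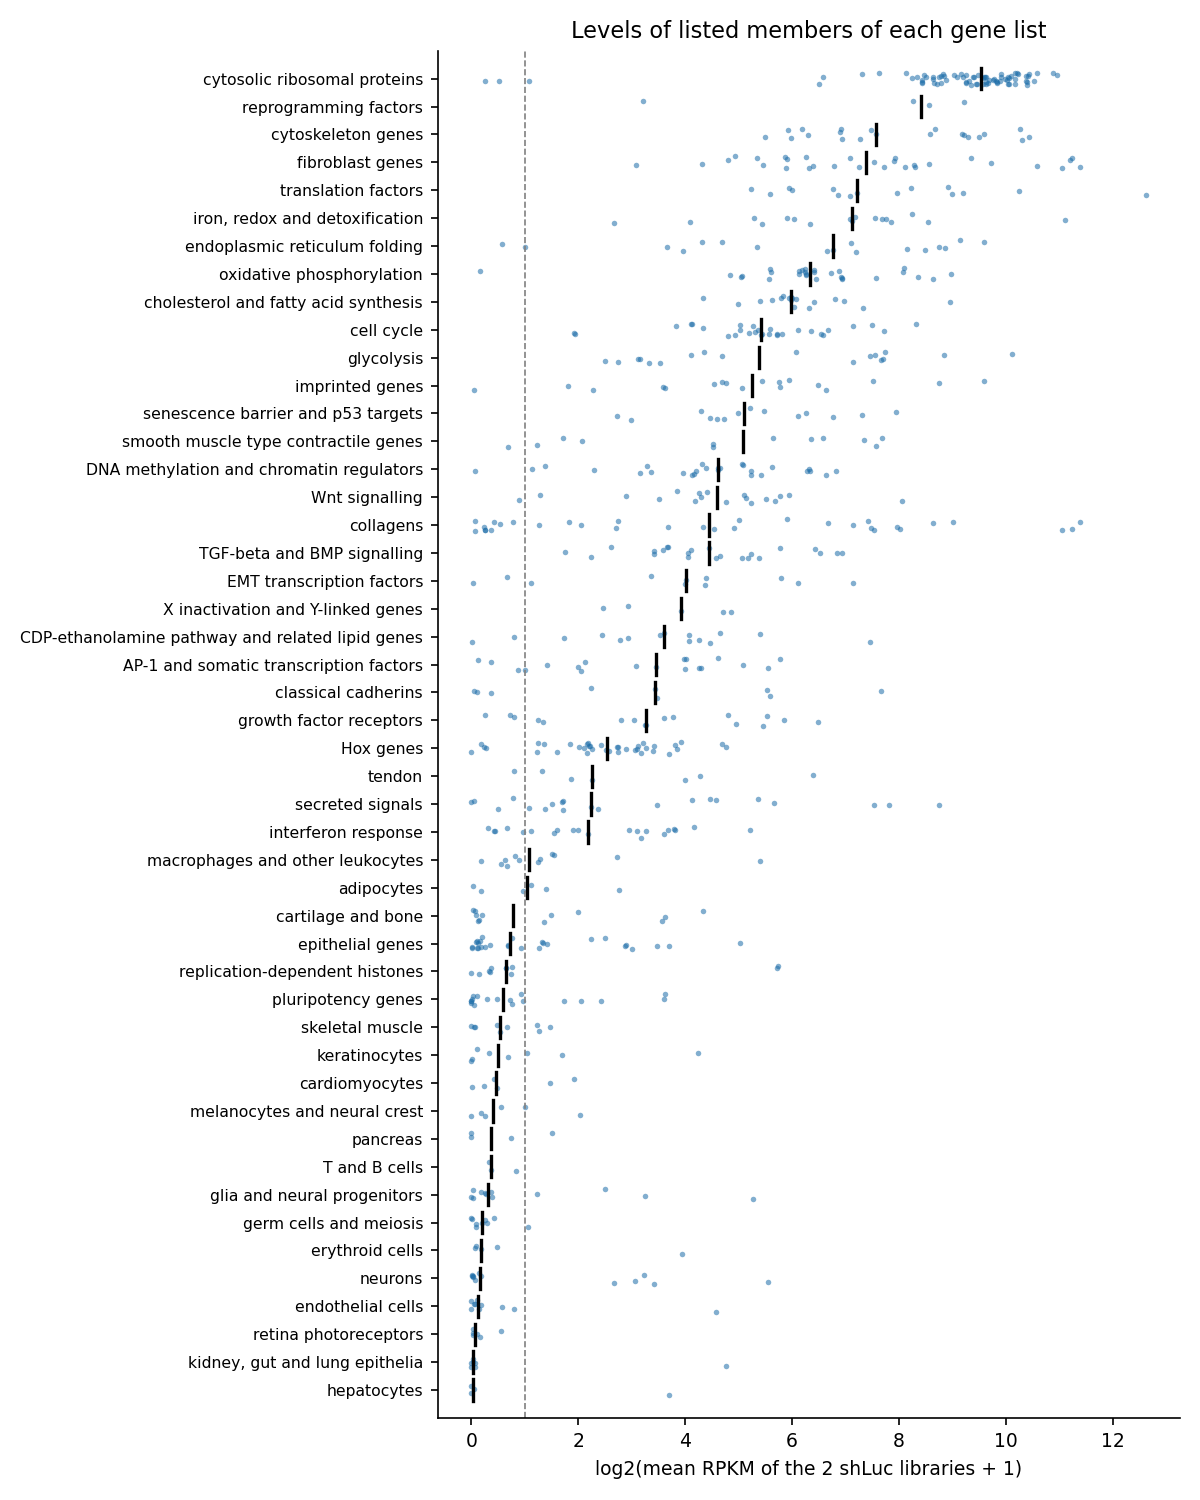
Levels of the listed members of 48 gene lists as log2(mean RPKM of the 2 shLuc libraries + 1), 1 point per gene, with the list median as a black bar and the dashed line at 1 RPKM. The median lay at or above 1 RPKM for 30 of 48 lists, from ribosomal proteins down to adipocytes, and below it for the others, which are the pluripotency, epithelial and histone lists and lists of other cell types.

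Whole gene families differed in the share of listed members that were on, which was 64.2% over all listed genes. Of 60 listed olfactory receptor genes 3 were on, with a median of 0.0187 RPKM, and only 57 of the 1110 olfactory receptor genes of RefSeq were listed at all. Of 21 listed vomeronasal receptors 0 were on, and of 15 voltage-gated potassium channels 1. Keratins had 5 of 31 on and cytochrome P450 genes 14 of 60, while 302 of 348 listed Zfp zinc finger genes were on. Integrins, with 14 of 24 on (58.3%), were close to the share over all listed genes, and Itgb1, the common beta chain of matrix receptors, had a mean of 251 RPKM. Among the 945 gene ontology terms with at least 20 listed genes, 6 had every listed gene on, and genes with a term were on in 69.8% of cases. The 6 were the DNA damage checkpoint (22 genes), endosome organization (30), histone acetylation (20), mitotic cytokinesis (24), negative regulation of cyclin-dependent protein kinase activity (23) and vesicle organization (24). In 13 terms under 25% of listed genes were on, among them detection of smell (1 of 40), response to pheromone (1 of 24), neuronal action potential (4 of 30) and potassium ion transmembrane transport (12 of 84).

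The libraries labelled shLuc replicates 1 and 2 differed little for most genes. Over the 11969 genes whose mean of both libraries reached 1 RPKM, the median absolute difference of log2(RPKM + 1) was 0.09, the standard deviation of the differences was 0.20, and 89.9% of genes lay within 1.2-fold. Pearson's r of the levels across these genes was 0.992, given as a description, since genes are not replicates. The spread narrowed with level: between 1 and 3 RPKM the median absolute difference was 0.154, against 0.136 from counting error alone, and at 300 RPKM and above it was 0.0521 against 0.0112. Among the 15 pairs of the 6 libraries the median difference ran from 0.0839 to 0.142. The smallest was that of the library labelled replicate 2 with shPebp1, the next that of the libraries labelled shLuc replicates 1 and 2 (0.0875), and the third that of the library labelled replicate 1 with shPcyt2 (0.0887). By this measure the closest pair was the same pair that shared the low level of Pebp1. Other measures ordered the pairs otherwise. Pearson's r was 0.9926 both for that pair and for the library labelled replicate 1 with shPcyt2. The share of genes at least 2-fold apart was smallest, at 0.460%, for shPcyt2 with the library labelled replicate 2.

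A 2-sided exact binomial test of the recovered reads, adjusted over all 11969 genes, asked where the libraries differed beyond counting error. It compares these libraries and not conditions. It called 2234 genes (18.7%), 1181 higher in the library labelled replicate 2 (9.87%) and 1053 lower (8.80%), of which 2167 lay within 1.5-fold. By the rule of at least 2-fold on the log2(RPKM + 1) scale, 63 genes (0.526%) were apart, 31 of them higher (0.259%) and 32 lower (0.267%). Of the 63, 53 were entries for small RNAs, which were counted by few reads, and 5 of the others had at least 50 reads on average: Pebp1, Erdr1, Acta1, Crispld2 and Kcnj15.

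More contractile, cytoskeletal and sterol genes were higher than lower in the library labelled replicate 2. Of 11 contractile genes tested 6 were higher there and 0 lower by the exact binomial test, against 9.87% and 8.80% of all genes, with a median log2 difference of 0.24. They were Acta2, Tagln, Cnn1, Myl9, Tpm1 and Actg2, of which Cnn1 (calponin) stood at 1.92 and 4.48 RPKM and Myl9 at 86.2 and 104. Of 21 cytoskeletal genes 12 were higher and 1 lower (median 0.06), of 18 sterol and fatty acid genes 10 were higher and 0 lower (median 0.08), and of 26 chromatin regulators 9 were higher and 0 lower (median 0.05). The same quantity had a median of 0.00 over all genes tested. Calls in either direction became more frequent with level, from 12.1% of genes between 1 and 3 RPKM to 38.1% between 100 and 300 and 57.3% from 300 RPKM upwards, so the counts of abundant lists are to be read against these shares and not only against 18.7%.

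More ribosomal, interferon and fibroblast genes were lower than higher there. Of 76 ribosomal protein genes tested 39 were lower in the library labelled replicate 2 and 1, Rps2, was higher, with a median log2 difference of -0.06. A called share of that size is near the 57.3% of all genes from 300 RPKM upwards, where most of these genes lie. Short transcripts as a whole moved in that direction: the median difference was -0.03 for genes of at most 700 nt and 0.01 for genes longer than 5000 nt, and the part of length in the ribosomal difference was not tested. Of 16 interferon-response genes 6 were lower and 0 higher (median -0.13), among them Isg15, a ubiquitin-like modifier, at 9.05 and 4.37 RPKM and Bst2 at 39.8 and 32.2. Of 30 fibroblast genes 14 were lower and 6 higher, where 38.1% of all genes between 100 and 300 RPKM and 57.3% of those above were called in either direction. Ly6a (Sca-1) was lower at 237 and 184 RPKM, and Postn was higher at 170 and 201. Pou5f1 and Klf4 were lower in the library labelled replicate 2, by 0.12 each on the log2 scale (adjusted p = 4.4e-13 and 5.5e-17, exact binomial test), whereas Sox2 and Myc did not pass (adjusted p = 0.099 and 0.51, exact binomial test). Cdh1 was lower by a difference of -0.20 and Thy1 by -0.15 (adjusted p = 0.014 and 0.0089, exact binomial test).

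The genes that differed most, among those with at least 50 reads on average, were followed through all 6 libraries. After Pebp1, those lower in the library labelled replicate 2 were Isg15, Clic3, 1700007K13Rik, Krt8, Atg10, Pecr, Tmem107, Serp2 and Dctpp1. Isg15 stood at 4.37 RPKM there and at 7.32 to 12.5 in the other 5 libraries, and Krt8 at 0.845 there and at 1.40 to 2.23 in the others, so the library labelled replicate 2 was the lowest of the 6 for both. Clic3, a chloride channel family gene, stood at 10.6 RPKM in the library labelled replicate 1 and at 4.69 to 7.33 in the other 5, so there the library labelled replicate 1 stood apart.

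Those higher in the library labelled replicate 2 were Erdr1, Acta1, Crispld2, Kcnj15, Cnn1, C230035I16Rik, Rbpms2, Mmp13, Lhfpl1 and Steap1. Crispld2, a secreted protein gene, stood at 2.71 RPKM in the library labelled replicate 1 and 3.36 in shPebp1, against 7.005 in the library labelled replicate 2 and 6.41 to 8.32 in the other 3. Kcnj15, a potassium channel gene, stood at 0.699 and 0.698 RPKM in the library labelled replicate 1 and shPebp1, and at 1.84 to 3.08 in the other 4. Cnn1 stood at 1.92 and 2.03 RPKM in those libraries and at 4.48 to 7.74 in the other 4. Mmp13, a collagenase gene, stood at 8.57 and 11.3 RPKM in them and at 14.7 to 20.1 in the other 4. These 4 were chosen after their values were seen. For Crispld2, Cnn1 and Mmp13 shPebp1 lay between the libraries labelled replicates 1 and 2. Acta1 stood at 0.758 and 1.37 RPKM in the library labelled replicate 1 and shPebp1, and at 2.17 to 3.45 in the other 4. Steap1 stood at 1.39 and 2.12 RPKM in them and at 2.88 to 4.58 in the other 4. Rbpms2 stood at 0.989 and 1.81 RPKM in the library labelled replicate 1 and shPebp1, and at 1.91 to 2.34 in the other 4, with 2.34 in the library labelled replicate 2. Erdr1, C230035I16Rik and Lhfpl1 did not show this order. Erdr1 ran from 12.7 RPKM in the library labelled replicate 1 to 29.4 in the library labelled replicate 2, the lowest and the highest of the 6.

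**Figure D5:**
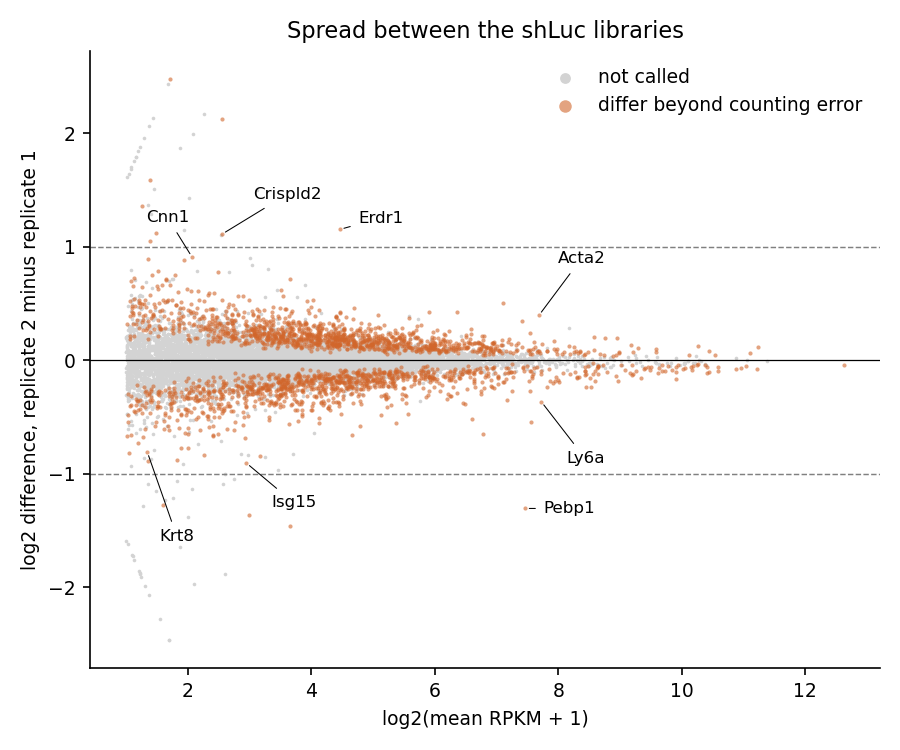
Difference of log2(RPKM + 1) between the libraries labelled shLuc replicate 2 and replicate 1 against log2(mean RPKM + 1) for 11969 genes, with the 2234 genes that differ beyond counting error in orange and dashed lines at 2-fold. Most genes lie close to 0 and the cloud narrows with level, while Pebp1 lies alone below the 2-fold line among genes over 100 RPKM.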

How the data were processed

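Poly(A) RNA was sequenced as paired ends of 100 bases after 12 cycles of PCR, per the labels' protocols. The authors deposited a table of RPKM values per gene and library. The submitters' processing notes name Bowtie 0.12.2 and build mm10. Which gene models, counter, strand setting or gene filter the authors used is not given in the sources used here. From the RPKM values whole reads and whole lengths (median 2638 nt) were recovered for all 18303 genes, within 1e-05 reads plus a relative 5e-09; for 561 of them the smallest whole numbers were multiplied until the length was whole. Symbols on 2 lines, 2 in all, were read from the line with the higher mean, and 26 date-like names were kept.

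Levels were described from the 2 shLuc libraries without a test. Their difference was taken on log2(RPKM + 1), which understates the change of low genes, and reads were compared by a 2-sided exact binomial test given the library totals, with Benjamini-Hochberg adjustment over 11969 genes and a threshold of 0.05. Scripts were tested on simulated data. Python 3.11.15, numpy 2.4.6, pandas 2.3.3, scipy 1.17.1 and matplotlib 3.10.9 were used. Genome positions of the deposited symbols overlapped the GENCODE vM21 gene for 99.7% of 17358 symbols. Gene sets with promoters for under 80% of their genes were not compared, except for TATAAA. There all coding genes (79.9%) and genes at 100 RPKM or more (79.7%) were set beside.

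The members, 49 gene lists and tests were chosen with earlier results of these data known; the limit of 20 genes per gene ontology term and the gene families were chosen after values were seen. Named genes were the 25 most abundant, the 6 markers, list members at the top, near 0 or with a described role, the 10 that differed most in each direction with at least 50 reads, and Pebp1. The alternatives tried covered the level that counts as on, the pseudocount, filters, scaling, small RNA entries and leaving out each library.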

Additional observations from a re-analysis of the deposited data

How the results depend on the processing

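Of 36 alternatives to the summary values, 26 left them in place by the rule set for each. For the share of the 100 most abundant genes the limit was the spread between the 2 libraries. For all other values it was a factor of 1.5. Some of the 26 could hardly have moved. The limit for the share came from the same libraries, so leaving out either library was bound to stay near it. For the list medians, a pseudocount of 0.1 kept the cut at 1 RPKM. These settings show nothing about stability. Genes without reads rose from 1097 to 2831 when levels under 0.1 RPKM counted as silent, and to 1826 to 1901 with either library alone. The share of the 100 most abundant genes was 26.1% of RPKM (25.9% to 26.3% with either library alone) and 18.9% of reads. Lists with a median of at least 1 RPKM were 30 of 48 (29 to 30 with either library alone). Keeping only members that were on gave 46, an outcome fixed in advance, since such members all reach 1 RPKM. That setting is among the 36, where it counted as moved, and it shows nothing about the lists. Genes on numbered 11962 to 11981 with either library alone. At a threshold of 0.01 the exact binomial test called 1286 genes in place of 2234. Genes at least 2-fold apart numbered 63, 103 with a pseudocount of 0.1, 103 with no filter, 5 with at least 50 reads and 10 without small RNA entries. The cause of these moves was not tested beyond what each setting changes. The promoter comparison with genes under 0.1 RPKM was not run, since 77.2% of them had a promoter. No paired analysis was possible because only shLuc has replicate numbers and the other groups hold 1 library each. With 2 libraries labelled shLuc, 1 of which went against its label for Pebp1, no spread over cultures can be given, and low genes are limited by counting error.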

Other observations

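Among secreted and surface proteins, chemokine and neuropeptide genes were mostly off: 5 of 28 listed genes of chemokine-mediated signalling and 12 of 66 of neuropeptide signalling were on. Ccl7 and Ccl2, which attract monocytes, were exceptions at 42.8 and 38.2 RPKM and at 16.6 and 16.4 in the libraries labelled replicates 1 and 2. Solute carriers were on in 185 of 335 cases (55.2%) and protocadherins in 33 of 68 (48.5%), against 64.2% of all listed genes. Entries for microRNAs (264 listed, 47 on) and small nucleolar RNAs (80 listed, 39 on) rested on few reads, with a median of 1 read over 355 small RNA entries.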
